A study of Homo sapiens with 12 samples.

Results

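Transcripts of 10 chemokine genes that epithelial cells can make were followed in MCF10A, a breast epithelial line of human origin that does not form tumours: CXCL1, CXCL2, CXCL3, CXCL5, CXCL8, CXCL14, CXCL16, CCL2, CCL20 and CX3CL1. They were found by gene symbol in the probe annotation of the array and are 10 of the 18417 genes tested. Each had 1 probe set that named it alone, and the probe sets that named several genes held none of them. The cells of all 4 groups, untreated cells included, stably carried a full-length HER2 chimera tagged with FKBP and HA, so no group shows cells without it. Whether the line is 1 clone is not stated in the labels. The groups were untreated cells and cells given AP1510, TGF-alpha or heregulin, each read on 3 arrays, 12 in total. The synthetic dimerizer AP1510 has 2 FKBP-binding ends and so joins tagged receptors into HER2 homodimers. TGF-alpha binds EGFR, whereas heregulin binds HER3 and HER4. Serum and EGF were withdrawn 24 hours ahead of ligand in medium that kept cholera toxin, hydrocortisone and insulin, and RNA was taken 48 hours after ligand. Neither dose nor vehicle nor the time at which untreated cells were harvested is given in the sources used here, so ligand and time in culture cannot be told apart in comparisons with untreated cells. Each group came from triplicate dishes, and p-values measure the spread between them.

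Chemokines are small secreted proteins that guide leukocytes through G protein-coupled receptors. CXCL1, CXCL2, CXCL3, CXCL5 and CXCL8 carry the ELR motif ahead of their paired cysteines, act on CXCR2, CXCL8 also on CXCR1, and are known for drawing neutrophils. CCL20 acts on CCR6 and CCL2 on CCR2, which lymphocytes and dendritic cells, and monocytes, respectively, use. CXCL16 and CX3CL1 are made as membrane-anchored proteins, bind CXCR6 and CX3CR1, and are released by ADAM proteases, whereas CXCL14 is made by many resting epithelia. In epithelial cells the ELR chemokines and CCL20 are textbook targets of NF-kB, and several of their mRNAs are short-lived because of AU-rich elements.

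Values are log2 intensities, in which a difference of 1 is a 2-fold difference, and levels of different genes are not compared because each probe set has its own response. A gene was called changed at a Benjamini-Hochberg adjusted p under 0.05 over all genes tested, from limma on all 12 arrays. The 3 comparisons with untreated cells use the same 3 untreated arrays. Array medians ran from 5.33 to 5.44 and the median over all probe sets was 5.37. Of 9 listed epithelial markers, 5 were measured alone, and all 5 were above that median in untreated cells. They were the basal markers KRT5, KRT14 and ITGB4 and the general epithelial markers EPCAM and CDH1. Of 20 leukocyte, endothelial and stromal markers, 18 were measured, and the mean of these 18 per array was between 4.78 and 5.11. The highest group mean was above that median for 6 of them (PECAM1, CD68, DCN, COL1A1, CSF1R and CDH5). The defining leukocyte gene PTPRC read 2.83 to 3.12 and the endothelial gene PECAM1 8.10 to 8.72 over the arrays. The highest group means of CCL2, 4.31, and CCL20, 5.34, lay below the median of all probe sets.

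The 4 treatments split the chemokines into those that differed among the groups and those that did not pass the test. Jointly over the 3 comparisons with untreated cells, a moderated F test called CXCL1, CXCL8, CXCL2, CXCL16 and CCL20, 5 of the 10 genes, where 28.5% of all genes were called. CXCL3, CXCL5, CXCL14, CCL2 and CX3CL1 did not pass, with adjusted p from 0.39 to 0.89. With TGF-alpha 4 genes fell and 1 rose, where 13.4% of all genes were called lower and 12.5% higher. With heregulin 2 rose and 0 fell, where 3.45% were called higher and 5.06% lower. With AP1510 1 fell and 0 rose, where 0.7% were called lower and 0.771% higher. The median change over the 10 genes was -0.06 with TGF-alpha, 0.06 with heregulin and -0.11 with AP1510, beside -0.01, 0.01 and -0.01 over all genes. These medians include the 5 genes that did not pass, and a common shift of the set was not tested.

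**Figure D1:**
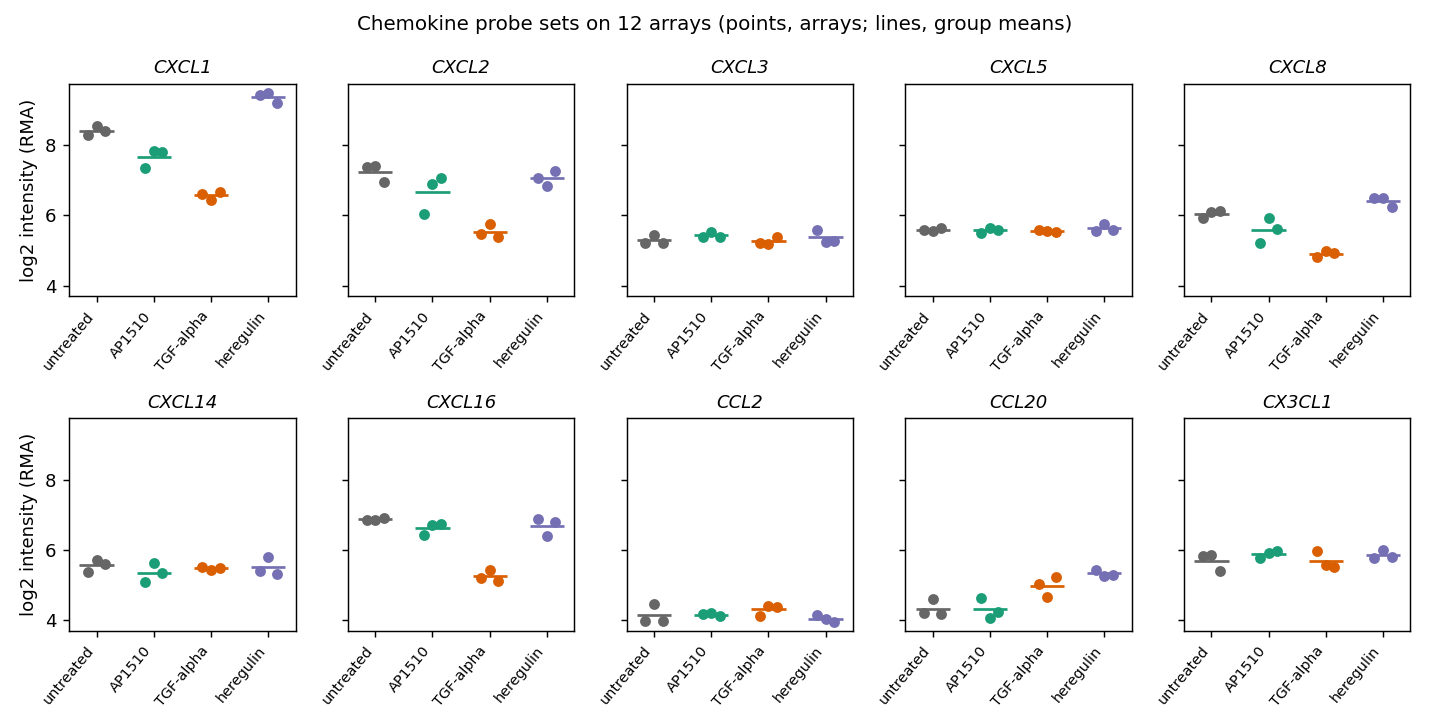
Log2 intensity of each chemokine gene (vertical axes, the same scale in every panel) on the 12 arrays by treatment group; points are arrays and lines are group means. CXCL1 spans 6.44 to 9.47 with 4 separate groups, whereas CXCL5 stays between 5.48 and 5.76.

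CXCL1, which recruits neutrophils through CXCR2, separated all 4 groups. Its log2 intensity was 8.29, 8.54 and 8.40 in untreated cells and 7.35, 7.82 and 7.79 with AP1510. It was 6.61, 6.44 and 6.66 with TGF-alpha and 9.43, 9.47 and 9.19 with heregulin. The groups did not overlap, and the order from low to high was TGF-alpha, AP1510, untreated and heregulin. Against untreated cells CXCL1 fell 3.58-fold with TGF-alpha (log2 change -1.84 ± 0.12, SE, adjusted p = 2.3e-08). AP1510 lowered it 1.69-fold (-0.75 ± 0.12, adjusted p = 0.0057). It rose 1.94-fold with heregulin (0.96 ± 0.12, adjusted p = 9.7e-05). In a bulk culture, fewer cells making a transcript and less transcript per cell cannot be told apart. Each pair of treatments differed as well. CXCL1 was 6.93-fold higher with heregulin than with TGF-alpha (adjusted p = 2.6e-10; 95% interval of the ratio 5.77 to 8.33), which ranked 14 of 18417 genes among the rises of that comparison. It was 3.27-fold higher with heregulin than with AP1510 (adjusted p = 2.4e-07) and 2.12-fold lower with TGF-alpha than with AP1510 (adjusted p = 8.5e-06).

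CXCL8, interleukin-8, the ligand of both CXCR1 and CXCR2, kept the same order of groups. The 3 untreated arrays read 5.92, 6.09 and 6.13, those with AP1510 5.22, 5.91 and 5.61, those with TGF-alpha 4.80, 4.99 and 4.93, and those with heregulin 6.49, 6.48 and 6.23. The TGF-alpha arrays lay below all others and the heregulin arrays above all others, and the highest AP1510 array lay just below the lowest untreated one. CXCL8 fell 2.20-fold with TGF-alpha (-1.14 ± 0.14, adjusted p = 1.0e-05). Neither the heregulin change of 0.36 ± 0.14 (adjusted p = 0.15) nor the AP1510 change of -0.47 ± 0.14 (adjusted p = 0.14) was past the threshold. The AP1510 value passed without AP1510 replicate 2 (-0.63, adjusted p = 0.028). Between treatments CXCL8 was 2.82-fold higher with heregulin than with TGF-alpha (adjusted p = 8.0e-07), 1.77-fold higher with heregulin than with AP1510 (adjusted p = 0.0014) and 1.59-fold lower with TGF-alpha than with AP1510 (adjusted p = 0.0020).

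CXCL2, a close relative of CXCL1 that also acts on CXCR2, fell with TGF-alpha and was not called with heregulin. It read 7.38, 7.39 and 6.96 in untreated cells and 6.05, 6.88 and 7.06 with AP1510. It read 5.45, 5.76 and 5.37 with TGF-alpha and 7.07, 6.84 and 7.25 with heregulin. The TGF-alpha arrays stood below all others, and the other 3 groups overlapped. The fall with TGF-alpha was 3.28-fold (-1.71 ± 0.21, adjusted p = 8.6e-06). The change was -0.19 ± 0.21 with heregulin (adjusted p = 0.68; 95% interval -0.63 to 0.25) and -0.58 ± 0.21 with AP1510 (adjusted p = 0.24). AP1510 replicate 1 was the lowest of its group, and without it the AP1510 change of CXCL2 was -0.28. AP1510 replicate 1 was the lowest of its group for 7 of the 10 chemokine genes, CXCL1, CXCL5, CXCL8, CXCL14, CXCL16 and CX3CL1 besides CXCL2, and the highest for CCL20. The same count was not made over all genes, so nothing is drawn from it about the array.

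The upper bound of the CXCL2 change with heregulin, 0.25, lay below the lower bound of the CXCL1 change, 0.69. On the same array, CXCL1 intensity exceeded that of CXCL2 by 0.91 to 1.44 in untreated cells, 0.73 to 1.30 with AP1510, 0.68 to 1.29 with TGF-alpha and 1.94 to 2.63 with heregulin, in log2 units. Probe sets differ in their response, so these differences carry no level of one gene against the other, but their range with heregulin lay above those of the other 3 groups. This comparison was chosen after the values were seen and was not tested.

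CXCL3 and CXCL5, the other members that act on CXCR2, did not pass in any of the 6 comparisons. CXCL3 ran from 5.19 to 5.58 over the 12 arrays and CXCL5 from 5.48 to 5.76. CXCL3 changed by -0.03 with TGF-alpha (95% interval -0.25 to 0.20, adjusted p = 0.91) and CXCL5 by -0.04 (-0.22 to 0.14, adjusted p = 0.80). The untreated means, 5.29 for CXCL3 and 5.59 for CXCL5, lay close to the median of all probe sets, 5.37. Whether a fall could show on these probe sets was not tested. CCL28, another probe set at such a level, fell with TGF-alpha from 5.29 to 4.27. It was picked for the size of its change, and each probe set has its own response. Its fall therefore says nothing about whether one could show for CXCL3 or CXCL5. CXCL1, CXCL2 and CXCL3 are close copies of each other, and whether probes of 1 gene also read another was not tested.

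These 5 genes lie in a cluster on chromosome 4 whose protein-coding genes follow the order CXCL8, CXCL6, PF4V1, CXCL1, PF4, PPBP, CXCL5, CXCL3 and CXCL2 in the RefSeq annotation. CXCL6, PF4V1, PF4 and PPBP, chosen here for their position, did not pass against untreated cells in any treatment. Their untreated means were 4.01 to 4.59, below the median of all probe sets, and whether changes in them could show was not tested. CXCL10, another chemokine probe set near such levels, fell with TGF-alpha from 4.62 to 3.50. It too was picked for the size of its change, and each probe set has its own response. Its fall therefore says nothing about whether changes could show for these neighbours. CXCL1 and CXCL2, which fell more than 3-fold with TGF-alpha, have genes between them that were not called against untreated cells. Between treatments, PPBP was called higher with heregulin than with TGF-alpha (adjusted p = 0.025) and than with AP1510 (adjusted p = 0.049). Of 12 fits that left out 1 array, 4 lost the first of these calls and 10 the second.

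**Figure D2:**
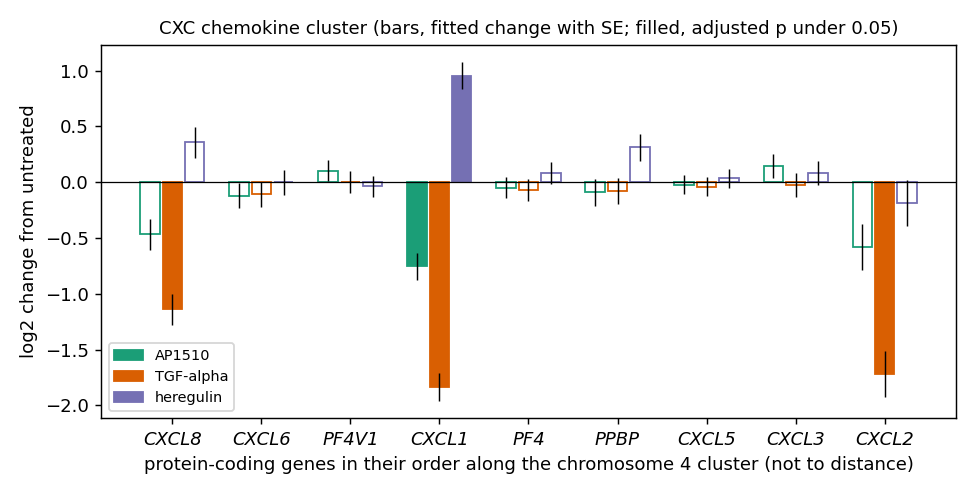
Log2 change against untreated cells (vertical axis) of the 9 protein-coding genes of the chemokine cluster on chromosome 4, in their order along the chromosome and not to scale of distance; bars are fitted changes, lines are SE, filled bars have an adjusted p under 0.05. With TGF-alpha the changes of CXCL8, CXCL1 and CXCL2 are -1.14, -1.84 and -1.71, and CXCL3 and CXCL5 lie near 0.

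The 150 bases ahead of the transcription start are shown for these 5 genes and CCL20 so that the genes that were not called can be set beside those that were. They come from RefSeq on GRCh38.p14, run 5′ to 3′ on the gene's strand, and have in capitals the matches to the kappa-B consensus, to the word GGAATTTCC and its longer form below, to AP-1 (TGA and TCA around 1 free base) and to the TATA box, TATAAA.
CXCL8, chr4:73740419-73740568, plus strand: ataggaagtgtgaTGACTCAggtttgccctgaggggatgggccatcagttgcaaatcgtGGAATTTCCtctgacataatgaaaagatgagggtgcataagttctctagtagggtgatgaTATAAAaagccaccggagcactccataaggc
CXCL1, chr4:73869243-73869392, plus strand: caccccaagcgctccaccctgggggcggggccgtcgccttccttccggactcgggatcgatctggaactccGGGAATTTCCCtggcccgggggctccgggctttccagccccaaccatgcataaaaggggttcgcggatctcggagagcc
CXCL2, chr4:74099196-74099345, minus strand: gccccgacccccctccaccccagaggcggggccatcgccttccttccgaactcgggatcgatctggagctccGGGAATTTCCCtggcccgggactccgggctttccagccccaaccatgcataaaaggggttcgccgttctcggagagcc
CXCL3, chr4:74038690-74038839, minus strand: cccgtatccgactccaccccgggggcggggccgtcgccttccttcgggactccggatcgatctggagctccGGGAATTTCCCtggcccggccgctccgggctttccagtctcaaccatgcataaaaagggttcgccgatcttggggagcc
CXCL5, chr4:73998678-73998827, minus strand: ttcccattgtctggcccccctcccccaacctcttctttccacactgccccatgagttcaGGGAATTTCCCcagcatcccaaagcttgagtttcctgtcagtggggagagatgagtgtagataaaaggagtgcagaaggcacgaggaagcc
CCL20, chr2:227813692-227813841, plus strand: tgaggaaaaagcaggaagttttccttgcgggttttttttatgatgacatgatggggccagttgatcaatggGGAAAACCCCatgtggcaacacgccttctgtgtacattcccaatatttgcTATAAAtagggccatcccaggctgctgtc

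The longest word that the 150 bases of CXCL1, CXCL2, CXCL3 and CXCL5 share is GGGAATTTCCC. It lies at bases -79 to -69 from the start in CXCL1 and CXCL3, -78 to -68 in CXCL2 and -91 to -81 in CXCL5. With CXCL8 included the longest shared word is GGAATTTCC, at -91 to -83 in CXCL8. Motifs were searched on both strands in 300 bases, 250 before to 50 after the start, for the 7 members in the promoter table and for all 35116 promoters there. GGGAATTTCCC stood in 0.0769% of all promoters and GGAATTTCC, which it contains, in 0.461%; both were added after the sequences were seen. The looser kappa-B consensus, which matches within GGGAATTTCCC on both strands, stood in 11.3% of promoters and in CXCL1, CXCL2, CXCL3, CXCL5 and CCL20. AP-1 stood in 7.71% of promoters and in CXCL8 and CXCL14, and the TATA box in 11.5% and in CXCL8 and CCL20. Aligned over the 150 bases, CXCL1 shared 88.8% of bases with CXCL2 and 88.1% with CXCL3, and CXCL2 shared 86.3% with CXCL3. CXCL1 and CXCL3 carry the word at the same place. Nothing is drawn from it about the difference in their calls, since whether a fall could show on the CXCL3 probe set was not tested. A match is a description of letters, and nothing about binding was measured.

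CXCL16, a transmembrane chemokine that also takes up oxidised lipoprotein, fell with TGF-alpha alone among the treatments tested against untreated cells. It read 6.86, 6.85 and 6.91 in untreated cells and 6.41, 6.71 and 6.74 with AP1510. It read 5.21, 5.44 and 5.13 with TGF-alpha and 6.87, 6.38 and 6.78 with heregulin. The TGF-alpha arrays stood below all others, the AP1510 arrays just below the untreated ones, and the heregulin arrays overlapped both. The fall with TGF-alpha was 3.06-fold (-1.61 ± 0.13, adjusted p = 9.4e-08), while AP1510 gave -0.26 ± 0.13 (adjusted p = 0.48) and heregulin -0.20 ± 0.13 (adjusted p = 0.43). CXCL16 was 2.56-fold lower with TGF-alpha than with AP1510 (adjusted p = 1.1e-06) and 2.67-fold higher with heregulin than with TGF-alpha (adjusted p = 5.4e-07). It lies on chromosome 17, outside the cluster.

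CCL20, the ligand of CCR6, was the member that rose with both natural ligands. Its arrays read 4.20, 4.59 and 4.17 in untreated cells and 4.63, 4.06 and 4.25 with AP1510. They read 5.02, 4.66 and 5.22 with TGF-alpha and 5.44, 5.27 and 5.30 with heregulin. Untreated and AP1510 arrays overlapped, the TGF-alpha arrays lay above both, and the heregulin arrays lay above all others. Heregulin raised CCL20 2.02-fold (1.01 ± 0.16, adjusted p = 4.9e-04) and TGF-alpha 1.56-fold (0.65 ± 0.16, adjusted p = 0.0051), and it changed by -0.01 ± 0.16 with AP1510 (adjusted p = 0.99; 95% interval -0.34 to 0.32). Compared with AP1510, heregulin gave 2.03-fold more CCL20 (adjusted p = 6.0e-04) and TGF-alpha 1.58-fold more (adjusted p = 0.0056). Heregulin and TGF-alpha differed by 0.37 ± 0.16 (adjusted p = 0.12). TGF-alpha therefore moved CCL20 and the neutrophil chemokine CXCL1 in opposite directions, and heregulin raised both. All CCL20 values lie near or below the median of all probe sets, and at low intensity RMA values compress differences.

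**Figure D3:**
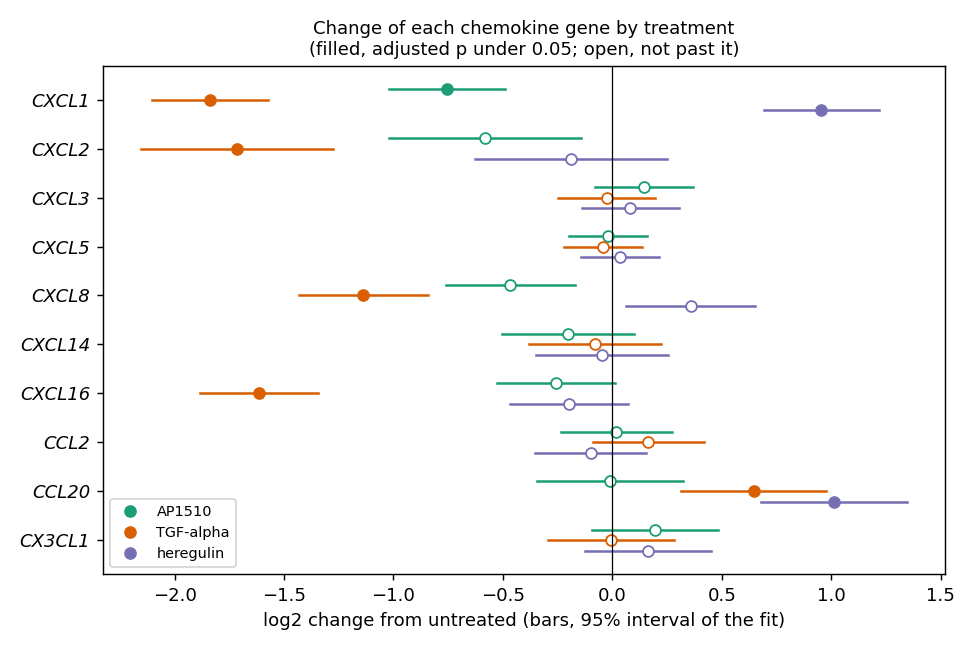
Log2 change against untreated cells (horizontal axis) of each chemokine gene with AP1510, TGF-alpha and heregulin; points are fitted changes, lines are 95% intervals, filled points have an adjusted p under 0.05. TGF-alpha has 4 genes at -1.14 or lower and CCL20 at 0.65, and heregulin has CXCL1 at 0.96 and CCL20 at 1.01.

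CXCL14, CCL2 and CX3CL1 did not pass in any of the 6 comparisons. CXCL14 ran from 5.09 to 5.81 over the 12 arrays, CCL2 from 3.96 to 4.46 and CX3CL1 from 5.41 to 6.0, and for each gene every treated group overlapped the untreated one. Of their 9 changes against untreated cells, the greatest in size was -0.20 for CXCL14 with AP1510 (95% interval -0.51 to 0.10, adjusted p = 0.69). CCL2, a monocyte chemokine, differed by -0.26 between heregulin and TGF-alpha (adjusted p = 0.15). Without untreated replicate 2, the highest untreated array, CCL2 was 0.32 higher with TGF-alpha (adjusted p = 0.035).

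Set directly against each other, the treatments had calls among the same 5 genes. Between TGF-alpha and AP1510, 4 genes were lower and 1 higher with TGF-alpha, where 10.4% and 11.2% of all genes were called in those directions. Between heregulin and AP1510, CXCL1, CXCL8 and CCL20 were higher with heregulin and 0 genes were lower, where 3.27% and 3.95% were called. Between heregulin and TGF-alpha, CXCL1, CXCL2, CXCL8 and CXCL16 were higher with heregulin and 0 were lower, where 9.88% and 11.8% were called. The median difference of the 10 genes in that last comparison was 0.27, beside 0.03 over all genes. Comparisons that use the same arrays are not independent of each other.

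The genes whose profiles over the 12 arrays lay nearest to each chemokine were found by the root mean square difference of log2 values centred on each gene's mean. For CXCL1, whose own root mean square deviation from its mean was 1.03, they were TNFAIP3 (0.221), SLC39A8 (0.327) and SOD2 (0.345). TNFAIP3 encodes the ubiquitin editor A20, an inhibitor of NF-kB signalling. It read 6.97, 6.97 and 6.82 in untreated cells, 6.24, 6.08 and 6.64 with AP1510, 5.15, 5.03 and 5.57 with TGF-alpha and 7.85, 7.74 and 7.96 with heregulin. As for CXCL1, the 4 groups of TNFAIP3 did not overlap. SLC39A8 encodes a zinc and manganese importer and SOD2 the mitochondrial superoxide dismutase.

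For CXCL16, with a deviation of 0.657, the nearest were SAT1 (0.0936), which acetylates polyamines, CTSO (0.115), a cathepsin, and ERV3-1 (0.135). For CXCL2, with a deviation of 0.717, they were CD82 (0.222), SAT1 (0.230) and CXCL16 itself (0.239), so CXCL2 lay nearer to CXCL16 than to CXCL1. For CXCL8, with a deviation of 0.583, they were ADCY3 (0.148), ACSL5 (0.157) and APOL1 (0.160). For CCL20, with a deviation of 0.478, they were HIPK2 (0.173), AFAP1L1 (0.197) and SLC39A14 (0.209), a metal importer of the same family as SLC39A8. HIPK2, a nuclear kinase, rose by 0.88 with TGF-alpha and 1.02 with heregulin. Nearness was measured on 12 arrays in 4 groups and is a description.

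**Figure D4:**
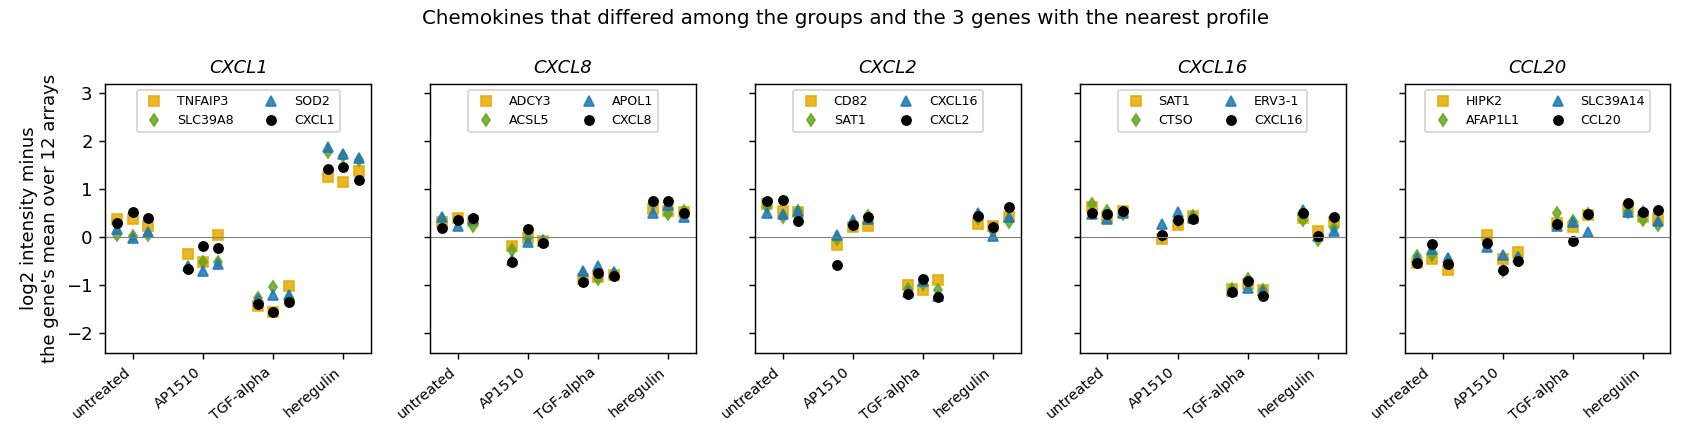
Log2 intensity minus the gene's mean over the 12 arrays (vertical axis) by treatment group for the 5 chemokine genes that differed among groups (black circles) and the 3 genes with the nearest profile to each (coloured symbols); points are arrays. The black CXCL1 points run close to those of TNFAIP3 in all 4 groups.

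For the gene lists that follow, the shares of all genes called stand for comparison: 13.4% lower and 12.5% higher with TGF-alpha, 5.06% lower and 3.45% higher with heregulin, and 0.7% lower and 0.771% higher with AP1510. The medians over all genes were -0.01, 0.01 and -0.01 in that order. Of 30 other chemokine genes measured, 2 had a highest group mean above the median of all probe sets. With TGF-alpha 3 fell and 0 rose, with heregulin 1 fell and 0 rose, and with AP1510 1 fell and 0 rose, with list medians of -0.07, 0.03 and -0.09. The counts with TGF-alpha and heregulin are smaller shares than those over all genes. CXCL10, a ligand of CXCR3 on T cells, was 2.18-fold lower with TGF-alpha (adjusted p = 5.8e-06), and AP1510 lowered it 1.74-fold (adjusted p = 0.0052). Its group means, 4.62 untreated, 3.82 with AP1510 and 3.50 with TGF-alpha, are all below the median of all probe sets. TGF-alpha also lowered CCL28, a chemokine of mucosal epithelia, 2.02-fold (adjusted p = 2.0e-05) and CXCL17 1.73-fold (adjusted p = 2.8e-04). CCL28 was dim as well, at 5.29 untreated and 4.27 with TGF-alpha, and fold changes at such levels are uncertain in size. The fall of CCL28 with heregulin (-0.47, adjusted p = 0.035) was lost in 5 of 12 fits that left out 1 array, those without an untreated array or without heregulin replicate 2 or 3, and the heregulin count was then 0.

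Of 20 chemokine receptor genes, 2 rose and 1 fell with TGF-alpha, 1 rose with heregulin and 0 passed with AP1510, shares near or below those over all genes. CXCR4, the receptor of CXCL12, was 6.39-fold higher with TGF-alpha (adjusted p = 8.0e-09). Its 1.48-fold rise with heregulin (adjusted p = 0.042) was lost in 6 of 12 fits that left out 1 array, those without any 1 heregulin array, untreated replicate 2 or 3, or TGF-alpha replicate 3. CXCR1, a receptor of CXCL8, rose 1.91-fold with TGF-alpha (adjusted p = 2.5e-06), from a mean of 3.29 to 4.22, both below the median of all probe sets. The atypical receptor gene ACKR3 changed by -0.38 with TGF-alpha (adjusted p = 0.025), a call lost when TGF-alpha replicate 1, TGF-alpha replicate 2 or untreated replicate 3 was left out. CXCR2, CXCR6, CCR2, CCR6 and CX3CR1, the other receptors of the 10 chemokines, had untreated means of 3.36 to 3.94 and did not pass against untreated cells.

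In the list of NF-kB subunits, inhibitors and kinases, genes that passed were lower with TGF-alpha and higher with heregulin. Of 16 measured, 9 fell and 0 rose with TGF-alpha, with a median of -0.60, and 5 rose and 0 fell with heregulin, with a median of 0.17, where 13.4% of all genes were called lower and 3.45% higher in those comparisons. With AP1510 1 fell, with a median of -0.18. TGF-alpha lowered NFKBIZ, a nuclear coactivator of NF-kB, 4.92-fold (adjusted p = 2.1e-07) and TNFAIP3 3.18-fold (adjusted p = 2.4e-07). NFKB2, the p100 subunit gene, was 2.25-fold lower with TGF-alpha (adjusted p = 4.8e-08) and 1.81-fold higher with heregulin (adjusted p = 7.6e-06). Heregulin raised TNFAIP3 1.90-fold (adjusted p = 4.9e-04). RELA did not pass in any treatment against untreated cells. The gene called with AP1510 was TNFAIP3 (-0.60, adjusted p = 0.049), a call lost in 9 of 12 fits that left out 1 array, where adjusted p reached 0.20 without AP1510 replicate 1; the fits that kept it left out heregulin replicate 2, AP1510 replicate 3 and TGF-alpha replicate 3. Between heregulin and TGF-alpha, 12 of 16 were higher with heregulin and 0 lower, with a median of 0.68, beside 9.88% of all genes higher and a median of 0.03. TNFAIP3, a target of NF-kB as well as its inhibitor, is both in this list and the nearest profile to CXCL1. The list pools genes that act for and against NF-kB. The falls with TGF-alpha took in NFKB1, REL, RELB, the kinase genes IKBKB and IKBKE and the inhibitor gene TNFAIP3. The rises with heregulin were NFKB2, RELB and the inhibitor genes NFKBIA, TNFAIP3 and TNIP1. The counts therefore give no direction of the pathway. These are transcript levels, and NF-kB activity was not measured.

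**Figure D5:**
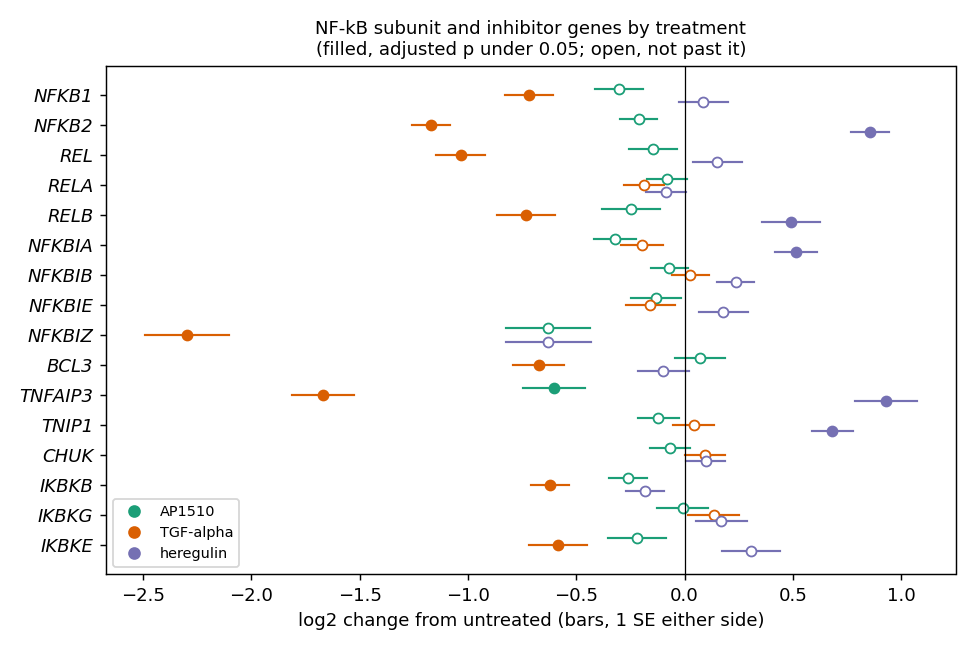
Log2 change against untreated cells (horizontal axis) of the 16 genes of NF-kB subunits, inhibitors and kinases with AP1510, TGF-alpha and heregulin. Points are fitted changes, lines are SE, and filled points have an adjusted p under 0.05. The filled TGF-alpha points, 9 in all, lie left of 0 and the filled heregulin points, 5 in all, lie right of it.

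Of 20 genes for IL-1, IL-17, TNF and Toll-like inputs, 10 fell and 2 rose with TGF-alpha, 4 rose and 3 fell with heregulin, and 1 fell with AP1510. The list medians were -0.24, 0.06 and -0.07, and the 2 rises with TGF-alpha are a smaller share than the 12.5% of all genes. IL1R2, a decoy receptor that binds IL-1 without signalling, rose 8.21-fold with heregulin (adjusted p = 7.5e-08), and TGF-alpha raised it 7.25-fold. CD14, the lipopolysaccharide co-receptor, fell 5.20-fold with TGF-alpha, and TLR3, a sensor of double-stranded RNA, 3.70-fold. The ligand genes IL1A, IL1B and TNF, named here after their values were seen, did not pass against untreated cells in any treatment.

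A list of 10 genes acts on the decay of AU-rich or other inflammatory mRNAs, and MAPKAPK2 among them counters decay. Of these 10, 5 fell and 2 rose with TGF-alpha (list median -0.25), 2 fell with heregulin (-0.03) and 1 fell with AP1510 (-0.03). ZC3H12A, a ribonuclease that degrades inflammatory mRNAs, fell 2.76-fold with TGF-alpha, ZFP36L1 2.50-fold and ZFP36 1.76-fold; the last encode proteins that bind AU-rich elements. The AP1510 call was ZFP36 (1.53-fold lower, adjusted p = 0.032), lost in 5 of 12 fits that left out 1 array, those without an untreated array, AP1510 replicate 1 or TGF-alpha replicate 2. Of 10 genes for shedding and trimming of chemokines, 3 fell and 1 rose with TGF-alpha (median -0.09), 1 rose and 1 fell with heregulin (0.02) and 0 passed with AP1510 (-0.12); the rise with TGF-alpha is a smaller share than that of all genes, and the other counts are of 1 to 3 genes. ADAM10, which sheds CXCL16 and CX3CL1, fell 1.37-fold with TGF-alpha (adjusted p = 0.0029), CTSB, a cathepsin, fell 1.43-fold, and FAP, a serine protease, rose 2.0-fold with heregulin (adjusted p = 1.6e-04). CTSB was also the gene called lower with heregulin (-0.28, adjusted p = 0.045), and it stayed called without AP1510 replicate 1 or TGF-alpha replicate 1 but not in the other 10 of 12 fits that left out 1 array.

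Markers of cell type moved with treatment as well. Of the 5 epithelial markers measured, 4 rose with TGF-alpha, among them KRT5 by 2.13-fold and the integrin gene ITGB4. With heregulin 2 rose and EPCAM fell 2.13-fold. With AP1510 2 rose, KRT5 by 0.52 (adjusted p = 0.024) and KRT14 by 0.48 (adjusted p = 0.0061) on the log2 scale; the KRT5 call was lost when AP1510 replicate 1 or either of untreated replicates 1 and 3 was left out. Of the 18 leukocyte, endothelial and stromal markers, 3 fell with TGF-alpha, 2 rose and 2 fell with heregulin and 0 passed with AP1510, and the 3 with TGF-alpha are a share near the 13.4% of all genes. DCN, a matrix proteoglycan, rose 3.01-fold with heregulin and fell 1.74-fold with TGF-alpha. With TGF-alpha the endothelial cadherin gene CDH5 fell 1.92-fold (adjusted p = 6.3e-05) and CD68, a lysosomal protein of macrophages, 1.74-fold (adjusted p = 2.1e-05). The leukocyte genes CD3D and LYZ and the endothelial gene VWF were below the median of all probe sets on all arrays. Whether these changes have a part in those of the chemokines was not tested.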

How the data were processed

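RNA from 12 cultures in 4 groups of 3 was hybridised to Affymetrix arrays. The authors deposited RMA values on the log2 scale, with the tool named in the submitters' processing notes and its version not given there; RMA corrects background, equalises array distributions and summarises probes. No further scaling was applied. Of 33297 probe sets, 19460 named 1 gene, and each of 18417 genes was represented by its brightest probe set on average, named through Entrez IDs (RefSeq, GRCh38.p14). The fit used limma 3.58.1 (R 4.3.3), with the 4 groups in 1 model and 6 contrasts, two-sided, with Benjamini-Hochberg adjustment over all genes within each contrast. The code was tested on simulated data. The number of arrays limits the precision.

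The members, gene lists and tests were chosen with earlier results of these data known. Named genes were all 10 members, the 3 genes of largest change past the threshold against untreated cells in each context or marker list, and the 3 nearest profiles of each member past the F test. Genes named for another reason, after their values were seen, are IL1A, IL1B, TNF, MAPKAPK2, RELA and the other genes named from the NF-kB list. The cluster neighbours, the chemokines' receptors and the other markers were named in that way too. Alternatives were an intensity trend, only 2 groups per fit, array weights, renewed quantile normalization, median centring, a filter on dim genes, all probe sets, other rules for the probe set, and leaving out each array.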

Additional observations from a re-analysis of the deposited data

How the results depend on the processing

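Of 60 member changes, 20 were called, and all 20 stayed past the threshold under each of 21 alternatives that could test them. Their signs stayed as well, but a sign could change only with array weights, renewed scaling or the loss of an array of the contrast. With dim genes left out, 11517 genes remained and CCL20 and CCL2 could not be tested, so 1 member was called with heregulin against untreated cells, not 2. Of 40 changes not called, 4 passed under 1 alternative each: CXCL8 with AP1510 and CCL2 with TGF-alpha, given above, and, with array weights, heregulin against TGF-alpha for CCL2 (-0.33, adjusted p = 0.015) and CCL20 (0.36, adjusted p = 0.039). With 1 array left out, 1 to 2 members were called with AP1510. The CXCL1 fall with AP1510 ranged from -0.84 to -0.60 in those fits. Signs changed in 33 alternative values, none past the threshold. Over the 6 context lists, without the marker lists, 4 genes were called with AP1510, 2 with only the 2 groups in the fit, 2 with all probe sets, and 2 to 5 with 1 array left out; 2 were called without each untreated array, AP1510 replicate 1 or TGF-alpha replicate 2. Heregulin against AP1510 gave 21 list genes, 16 to 21 with 1 array left out and 14 to 33 over the other alternatives, 33 with array weights. Heregulin against untreated cells gave 18, with 14 to 20 and 14 to 27 in the same order. Heregulin against TGF-alpha gave 32, with 28 to 34 and 29 to 44. Single lists also moved: other chemokines with heregulin gave 1 call, 0 to 2 with 1 array left out and 4 with array weights; with TGF-alpha they gave 3, and 1 with dim genes left out; receptors with TGF-alpha gave 3, and 1 with dim genes left out; NF-kB genes with AP1510 gave 1, and 0 to 2 over the alternatives. No paired analysis was possible because the labels give the arrays no shared replicate numbers.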
